A study of Mus musculus with 23 samples.

Results

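Bax, Btg2, Ccng1, Gadd45a, Gadd45b, Phlda3, Sesn2 and Trp53inp1 are transcriptional targets of the tumour suppressor p53, and their ATAC-seq peaks are described here in 3T3-L1 cells that received Kdm5c siRNA or scramble siRNA. The 8 genes were taken by symbol from the gene column of the authors' 3 tables of gene-named peaks, 1 table a day, and they are 8 of the 11533 genes named there on at least 1 day. All 8 carried a named peak on each of the 3 days, as did 8452 genes in all. Mdm2, a p53 target whose main peak had a higher level than 99.98% of gene-named peaks on each day, stood as the comparison for level. The rule took the genes by name and used no measured value, although the set was proposed with earlier results of these data known.

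ATAC-seq counts the fragments that a transposase cuts out of open chromatin. The 3T3-L1 line is an established mouse preadipocyte line that can be differentiated into fat cells. The cells received 50 nM of siRNA on day -3, either against Kdm5c, which encodes a demethylase of lysine 4 of histone H3, or non-targeting, called scramble. Transfection was done with Lipofectamine RNAiMAX on sub-confluent cells kept in preadipocyte medium, and libraries were made 24 hours (day -2), 48 hours (day -1) or 72 hours (day 0) later. The labels name no further agent or genotype. The 6 groups had 4 libraries each, except that Kdm5c siRNA on day 0 had 3 (replicates 1, 2 and 4), and the 23 libraries are not stated to come from separate cultures, so p-values measure the spread between these libraries, which may be technical. siRNA lowers a transcript without changing the gene, and the tables do not measure transcripts. Counts at the main Kdm5c promoter peak (chrX:152232661-152233232 on day -2) do not check the knockdown. On day -2 it had normalised counts of 49.3 ± 16.9 in Kdm5c siRNA cells and 60.8 ± 16.7 in scramble cells (SD, n = 4 each). On day -1 the means were 36.2 ± 16.4 and 33.4 ± 2.16 in the same order (n = 4 each). On day 0 they were 49.5 ± 5.89 (n = 3) and 44.4 ± 5.94 (n = 4).

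The transcription factor p53 accumulates after DNA damage and other stresses, binds DNA as a tetramer at paired copies of a short site, and activates genes for growth arrest, DNA repair, cell death and metabolic restraint. Mdm2 encodes the ubiquitin ligase that marks p53 for destruction, and its own induction by p53 closes a feedback loop. In preadipocytes, growth arrest at confluence precedes differentiation. Among the 8 genes, Btg2, Ccng1, Gadd45a and Gadd45b are best known for cell-cycle and repair roles, Bax, Phlda3 and Trp53inp1 for cell death and survival signalling, and Sesn2 for metabolic stress.

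The promoters of Ccng1, Gadd45a, Btg2 and Bax are shown because their letters differ in the motifs that p53 and general promoter factors are known to use. The main peaks of Ccng1, Gadd45a and Btg2 covered all 250 bases shown on every day. That of Bax began only at base -80, -96 and -40 from the start on days -2, -1 and 0. Most of the Bax bases shown thus lay outside its main peak. Each line gives the 250 bases before the start of transcription in RefSeq's GRCm38.p6, read 5′ to 3′ on the gene's strand, which is the minus strand for all 4. Capitals mark the p53 half-site, the GC box (GGGCGG), the CCAAT box, the TATA box (TATAAA), the E-box (CACGTG) and the CRE (TGACGTCA), found on either strand, and in Ccng1 also the longer paired run described after the lines.
Ccng1 (chr11:40755287-40755536): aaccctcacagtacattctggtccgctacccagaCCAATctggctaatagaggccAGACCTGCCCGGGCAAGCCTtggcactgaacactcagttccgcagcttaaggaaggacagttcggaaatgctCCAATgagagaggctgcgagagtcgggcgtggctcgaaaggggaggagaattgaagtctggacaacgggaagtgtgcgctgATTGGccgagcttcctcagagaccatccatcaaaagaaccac
Gadd45a (chr6:67037408-67037657): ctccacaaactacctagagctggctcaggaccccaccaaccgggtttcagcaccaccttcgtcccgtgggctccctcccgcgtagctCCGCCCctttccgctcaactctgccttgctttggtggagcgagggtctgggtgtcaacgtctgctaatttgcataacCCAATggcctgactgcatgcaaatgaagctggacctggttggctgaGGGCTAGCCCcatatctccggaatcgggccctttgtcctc
Btg2 (chr1:134079156-134079405): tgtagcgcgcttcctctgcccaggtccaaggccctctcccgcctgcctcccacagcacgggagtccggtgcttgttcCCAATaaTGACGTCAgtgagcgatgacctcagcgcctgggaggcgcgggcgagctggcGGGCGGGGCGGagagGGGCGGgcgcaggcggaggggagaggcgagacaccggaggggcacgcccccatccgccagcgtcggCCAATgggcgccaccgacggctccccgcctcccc
Bax (chr7:45466899-45467148): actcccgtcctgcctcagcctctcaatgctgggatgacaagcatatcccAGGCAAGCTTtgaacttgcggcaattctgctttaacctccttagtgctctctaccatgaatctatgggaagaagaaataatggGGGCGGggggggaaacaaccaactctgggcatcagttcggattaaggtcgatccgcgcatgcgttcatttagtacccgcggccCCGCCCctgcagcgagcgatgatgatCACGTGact

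A RefSeq window from 250 bases before to 50 bases from the start was at hand for 7 of the 8 genes and for Mdm2. Trp53inp1 had no entry. Single p53 half-sites were found at base -201 in Bax, -185 in Ccng1, -40 in Gadd45a and -186 in Mdm2, counted from the start to the first base of the site. The Bax half-site lay outside the main Bax peak on every day. Such a half-site was present in 8.36% of all 32851 RefSeq windows of this length. A pair of exact half-sites with a gap of 0 to 13 bases was found in none of the 8 windows and in 0.0731% of all windows. The Ccng1 window held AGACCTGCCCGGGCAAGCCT at base -195, which is 1 base off an ungapped pair. Runs of 20 bases with at most 1 base off were in 0.0883% of windows, and this search was added after the letters had been seen. The nearest approach to an ungapped pair was 3 bases off in Gadd45a and Bax, 4 in Btg2 and 5 in Gadd45b, Phlda3, Sesn2 and Mdm2. Near matches to pairs with a gap were not searched.

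The GC box was in 35.7% of all windows, CCAAT in 37.4%, TATAAA in 13.6%, the E-box in 7.15% and the CRE in 1.79%. Btg2 held 3 GC boxes, of which the first 2 overlap by 1 base, and a CRE at base -166. Bax held 3 GC boxes and 2 E-boxes. Ccng1 held no GC box and 4 CCAAT runs. Gadd45b alone among the 8 windows held TATAAA, at base -46, with an E-box at base -185. The windows of the 7 genes had a GC content of 55.7% to 72.0%, against a median of 52.7% over all windows, with the lowest value in Ccng1 and the highest in Btg2, and held 14 to 32 CpG pairs, against a median of 7. A match gives letters only, and an absent match says nothing of a factor.

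All libraries were dominated by mitochondrial reads, which made up 56.4% to 93.2% of the counts in peaks. A library held between 1816082 and 3345583 nuclear counts at day -2, between 781309 and 1446979 at day -1, and between 1088968 and 2525925 at day 0. With mitochondrial counts the totals spanned 4474964 to 12222886, 9202281 to 14913397 and 8166766 to 12814609. Of 10 mesenchymal and preadipocyte markers, 8, 6 and 6 had a gene-named peak on days -2, -1 and 0, and Pdgfra and Cd34 had none on any day. Of the 15 markers of blood, epithelial, endothelial, muscle and neural cells, 7 had one on day -2, 1 on day -1 and 2 on day 0, with Kdr the 1 present on every day. Normalised counts are raw counts divided by the relative effective library size within a day, so they compare arms of a day and not days. At a peak of bulk nuclei, fewer cells with the site open and less opening in every cell cannot be told apart.

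Each day had its own peak boundaries, and 8, 8 and 10 peaks carried the names of the 8 genes on days -2, -1 and 0. Gadd45b was the gene with several, on day 0. The main peak of a gene is its named peak with the most counts. In the 7 genes with a RefSeq start, the main peak covered that start on every day, and its first base lay at -439 to -80 from the start on day -2, at -416 to -96 on day -1 and at -611 to -40 on day 0. The main peak of Trp53inp1 covered the 5′ end of the gene's RefSeq span. Main peaks were between 557 and 1364 bases wide at day -2, between 484 and 1546 at day -1 and between 270 and 1124 at day 0, against medians of 649, 625 and 669 for all gene-named peaks.

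**Figure D1:**
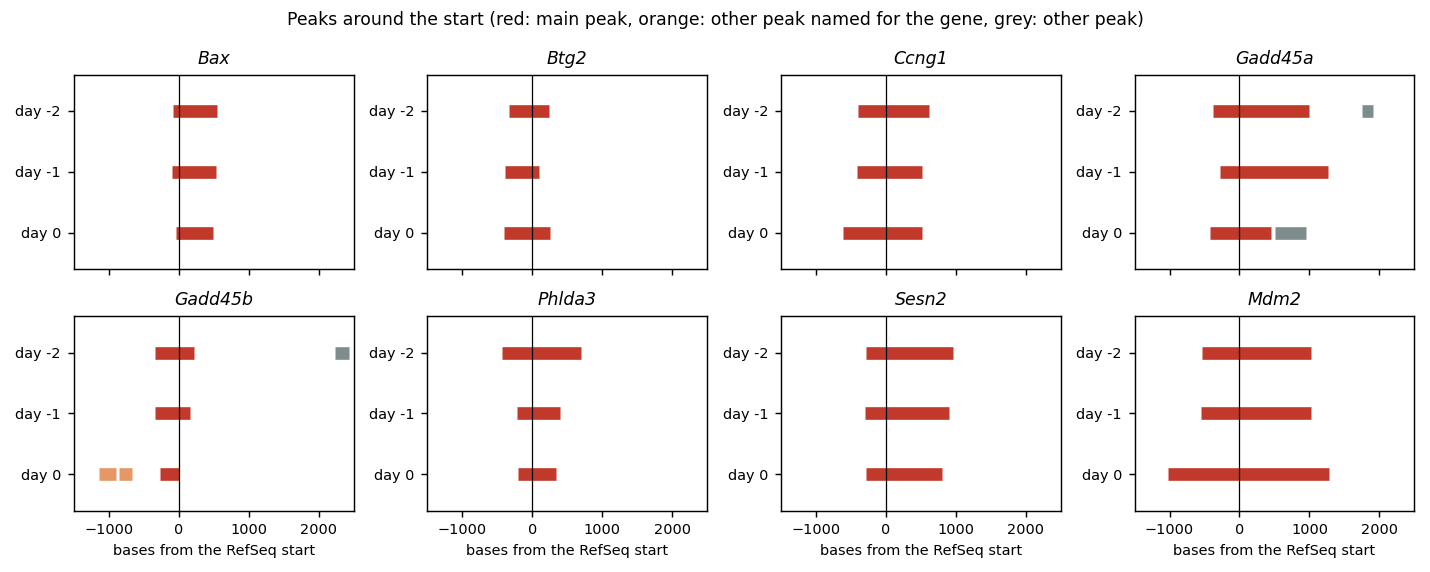
Positions of peaks around the RefSeq start of the 7 genes with a start and of Mdm2 on each day (horizontal axis in bases from the start, positive inside the gene; rows are days). Red bars are main peaks, orange bars other peaks named for the gene and grey bars other peaks. All main peaks cover the start, the Gadd45a peak is split into a named and an unnamed part on day 0, and Gadd45b gains 2 further named peaks on day 0.

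Another 20, 12 and 15 peaks lay within 10 kb of a span of the 8 genes on days -2, -1 and 0 without carrying the gene's name. Of these, 6, 5 and 4 were within 2 kb. They were small, with median widths of 181, 275 and 256 bases. Ccng1 had none on any day, Btg2 had 3 on day -2 alone, all too low to be tested, and Phlda3 had 4, 3 and 4. The peak beside Bax that carried the name of Ftl1, the ferritin light chain gene, appeared on each day.

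Levels between genes were compared as normalised counts per kb of peak. Gadd45a, whose product binds PCNA and stress kinase regulators, was highest of the 8 genes on every day. It had 254 ± 31.4 on day -2, 164 ± 24.2 on day -1 and 218 ± 14.9 on day 0 (SD over the 8, 8 and 7 libraries of a day). That placed it above 99.4%, 98.6% and 98.9% of all gene-named peaks. Its lowest library lay above the highest library of Ccng1, next in order, on each day. Ccng1, which encodes cyclin G1, had 144 ± 18.2, 105 ± 15.8 and 128 ± 15.4 per kb. Btg2 followed with 129 ± 27.3, 81.8 ± 17.0 and 117 ± 16.7, although Gadd45b stood between them on day 0 with 125 ± 23.6. The main Gadd45b peak of day 0 was only 270 bases wide. Its mean count of 33.7 was the lowest of the 8 genes that day, above 32.7% of gene-named peaks.

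The lower end of the order was held by Bax and Sesn2. Bax had 62.7 ± 10.8, 47.9 ± 17.5 and 75.0 ± 19.4 per kb on days -2, -1 and 0. Sesn2 had 72.9 ± 11.9, 43.8 ± 4.37 and 75.3 ± 15.5. Phlda3 had 92.8 ± 8.61, 78.8 ± 8.77 and 101 ± 6.90, and Trp53inp1 had 88.3 ± 10.6, 77.4 ± 15 and 79.2 ± 19.1. Below Gadd45a, the library ranges of all neighbours in the order overlapped on every day. The median gene-named peak had 84.1, 64.1 and 77.2 per kb, so both genes at the lower end lay below it on each day. For Sesn2 this place depended on the measure, as its peak was wide, with 1235, 1194 and 1085 bases. By counts without division by width, Sesn2 lay above 72.6%, 64.5% and 73.8% of gene-named peaks. Bax lay above 38.8%, 37.7% and 39.5% of them by counts.

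Against Mdm2 all 8 genes were low. Their levels lay between 62.7 and 254 normalised counts per kb on day -2, between 43.8 and 164 on day -1 and between 75.0 and 218 on day 0, and the main peak of Mdm2 had 3969 ± 303, 3138 ± 105 and 3002 ± 190. The Mdm2 level exceeded theirs 15.7-fold to 63.3-fold at day -2, 19.2-fold to 71.7-fold at day -1 and 13.8-fold to 40.0-fold at day 0. Every Mdm2 library lay above every library of the 8 genes. The surroundings differed as well. Unnamed peaks within 250 kb of the 8 genes had median levels of 0.881 to 1.80, 0.638 to 1.36 and 0.731 to 1.69 times the genome-wide median of unnamed peaks, and those around Mdm2 had 12.1, 12.3 and 13.8 times. Gadd45b, on chromosome 10 like Mdm2, had 1.14, 1.00 and 1.08 times. The medians for the 8 genes rest on as few as 2 peaks, around Trp53inp1 on days -1 and 0.

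**Figure D2:**
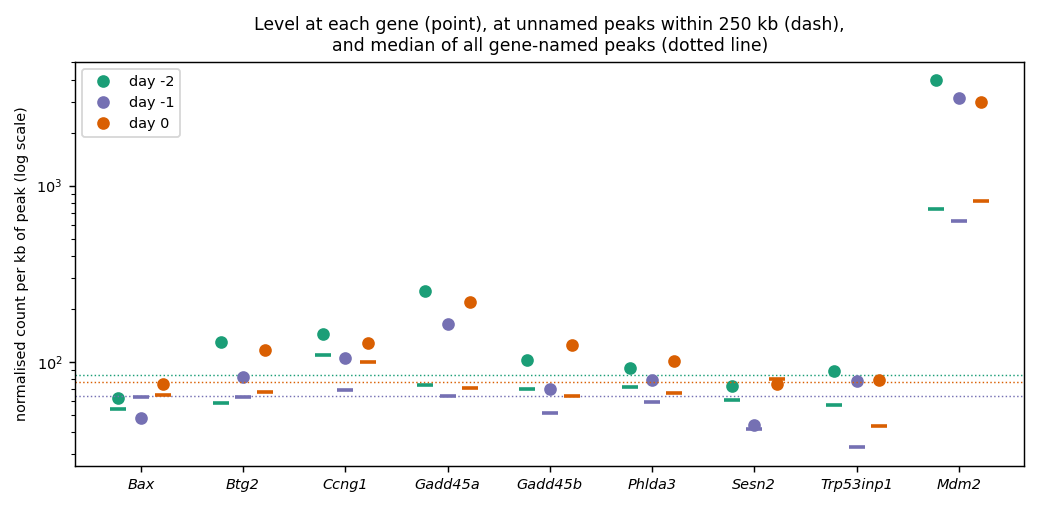
Level of the main peak of each gene as normalised counts per kb of peak (log axis) on each day, averaged over all libraries of the day. Points are genes, dashes the median of unnamed peaks within 250 kb, and dotted lines the median of all gene-named peaks. The 8 genes lie at 43.8 to 254, and Mdm2 lies at 3002 to 3969 with raised surroundings.

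No peak of the 8 genes passed the test between arms on any day. Each day was tested with edgeR's quasi-likelihood F test over all peaks, and a Benjamini-Hochberg adjusted p below 0.05 counted as a call. Of the named peaks, 0 of 8, 0 of 8 and 0 of 10 were called on days -2, -1 and 0, against 0.00404%, 0% and 0.00352% of all peaks tested. DESeq2 also called 0 of them and 0% of all peaks on each day. At an unadjusted p under 0.05 the count was 0 on each day, against 4.63%, 5.37% and 6.0% of all peaks. The arms overlapped at every named peak, beside shares of 2.86%, 3.28% and 6.22% without overlap among all tested peaks. With so few named peaks, this does not set them apart from the other peaks. The smallest adjusted p-values were 0.980, 0.941 and 0.923. The estimates at main peaks were positive, that is higher after Kdm5c siRNA, in 4, 2 and 3 of 8 genes and negative in 4, 6 and 5, with median log2 fold changes of -0.01, -0.05 and -0.03, against 0.00, -0.00 and -0.01 over all peaks tested.

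**Figure D3:**
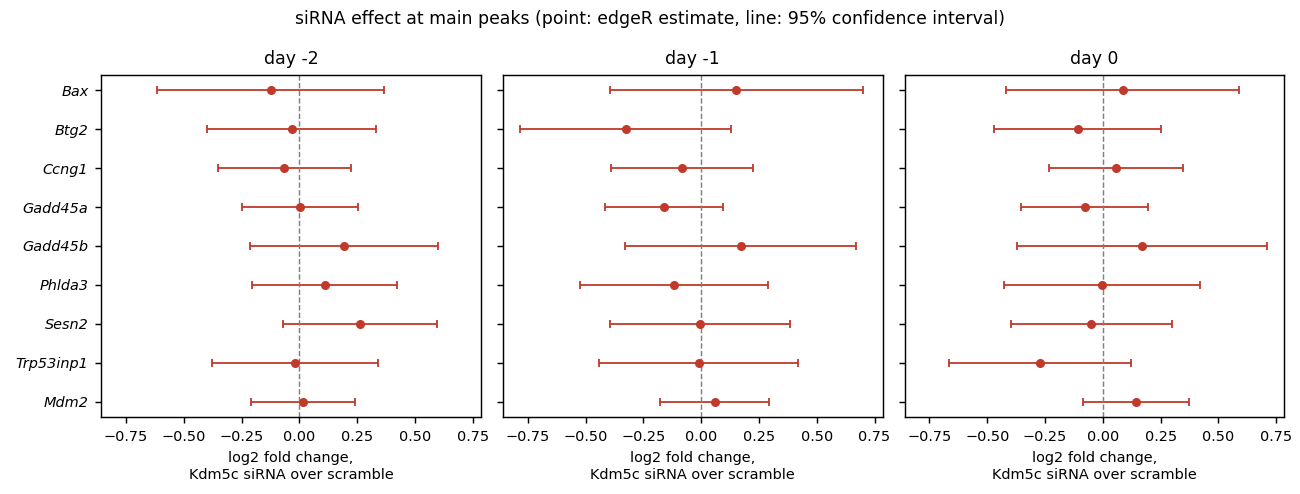
Log2 fold change of Kdm5c siRNA over scramble at the main peak of the 8 genes and Mdm2 on each day (points, edgeR estimates; lines, 95% confidence intervals). Every interval spans 0, and the 8 genes span -0.12 to 0.26, then -0.33 to 0.17, then -0.27 to 0.17 over days -2, -1 and 0.

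Among the growth-arrest genes, Btg2 encodes an antiproliferative protein that works with the CCR4-NOT deadenylase. On day -1 its peak (chr1:134079059-134079543) had normalised counts of 29.0, 48.7, 30.3 and 33.3 in Kdm5c siRNA cells, against 50.8, 39.1, 40.6 and 44.9 in scramble cells. Replicates 1, 3 and 4 of the Kdm5c arm lay below all scramble libraries, and replicate 2 lay above 3 of them. The log2 fold change was -0.33 (SE 0.23), with a 95% confidence interval of -0.78 to 0.13 and an edgeR adjusted p of 0.941. On day -2 the Btg2 means were 72.6 ± 19.9 in Kdm5c siRNA cells and 76.5 ± 13.2 in scramble cells (SD, n = 4 each). On day 0 they were 74.6 ± 9.02 in Kdm5c siRNA cells (n = 3) and 80.5 ± 13.1 in scramble cells (n = 4). The fold changes on those days were -0.03 and -0.11 on the log2 scale.

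Ccng1 encodes cyclin G1, which recruits a protein phosphatase to Mdm2, and its peak carries the promoter letters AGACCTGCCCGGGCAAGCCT. On day -2 the peak (chr11:40754675-40755687) had 172, 134, 124 and 142 normalised counts after Kdm5c siRNA, against 148, 155, 169 and 125 after scramble. On day 0 it had 151, 143 and 147 in Kdm5c siRNA cells, against 169, 152, 124 and 118 in scramble cells. The Kdm5c libraries of day 0 lay close together within the range of the scramble ones. Log2 fold changes were -0.07 (interval -0.35 to 0.22), -0.08 (-0.39 to 0.22) and 0.06 (-0.23 to 0.35) on days -2, -1 and 0, and no interval at this peak reached below -0.39 or above 0.35.

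Gadd45a had the most counts of the 8 genes and thus among the narrowest intervals. On day -2 its peak (chr6:67036416-67037780) had 263, 361, 398 and 360 normalised counts in Kdm5c siRNA cells, against 336, 348, 387 and 314 in scramble cells. On day -1 it had 202, 284, 219 and 250 in Kdm5c siRNA cells, against 268, 214, 290 and 298 in scramble cells. Libraries of both arms interleaved on both days. The log2 fold changes were 0.00 (interval -0.25 to 0.26), -0.16 (-0.42 to 0.10) and -0.08 (-0.35 to 0.19) on days -2, -1 and 0. On day 0 the peak was cut into the named part (chr6:67036963-67037826) and an unnamed part (chr6:67036457-67036902). The unnamed part had 58.0 ± 4.10 counts in Kdm5c siRNA cells (n = 3) and 67.2 ± 14.0 in scramble cells (SD, n = 4), with a log2 fold change of -0.22 and an edgeR adjusted p of 0.936. The region also overlaps the lncRNA gene E230016M11Rik, and ATAC-seq carries no strand.

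Gadd45b, the relative of Gadd45a that is also induced by inflammatory signals, had a positive estimate at its main peak on each day. On day -2 its main peak (chr10:80929746-80930303) had 55.8, 55.8, 63.8 and 71.8 normalised counts in Kdm5c siRNA cells, against 37.9, 43.3, 61.2 and 69.2 in scramble cells. On day 0 the main peak (chr10:80929824-80930094) had 33.5, 35.3 and 39.0 in Kdm5c siRNA cells, against 30.3, 40.7, 35.6 and 21.5 in scramble cells. The Kdm5c libraries fell within the spread of the scramble libraries or just above it. Log2 fold changes were 0.19 (SE 0.21), 0.17 (SE 0.25) and 0.17 (SE 0.28), each smaller than its error, with edgeR adjusted p-values of 0.983, 0.977 and 0.975. The other 2 named peaks of day 0 (chr10:80928952-80929195 and chr10:80929234-80929424) were upstream of the start and had means of 10.9 to 12.4 counts per arm. Their log2 fold changes were -0.09 (interval -1.15 to 0.97) and -0.20 (-1.32 to 0.92).

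Bax, the pore-forming protein that opens the outer mitochondrial membrane in apoptosis, had the fewest counts of all main peaks on days -2 and -1. On day -1 its peak (chr7:45466368-45466994) had 21.0, 29.0, 33.4 and 40.5 normalised counts in Kdm5c siRNA cells, against 28.8, 23.3, 49.0 and 15 in scramble cells. The scramble libraries held both the highest and the lowest value. Log2 fold changes were -0.12, 0.15 and 0.09 on days -2, -1 and 0, and the intervals spanned -0.61 to 0.37, -0.40 to 0.70 and -0.42 to 0.59.

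Phlda3 encodes a pleckstrin-homology protein that competes with Akt for membrane lipids. On day -2 its peak (chr1:135765646-135766786) had 103, 125, 106 and 104 normalised counts in Kdm5c siRNA cells, against 115, 95.8, 97.7 and 99.7 in scramble cells. Replicate 2 of the Kdm5c arm stood above all other libraries of the day, and without it the log2 fold change of the day was 0.03. On day 0 the arms had 55.4 ± 4.37 (Kdm5c siRNA, n = 3) and 54.9 ± 3.92 (scramble, n = 4) counts. Log2 fold changes were 0.11, -0.12 and -0.00 on days -2, -1 and 0, with SEs of 0.16, 0.21 and 0.22.

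Trp53inp1 encodes a nuclear stress protein that promotes p53 phosphorylation and autophagy. On day 0 its peak (chr4:11156039-11156861) had 53.6, 59.5 and 60.4 normalised counts in Kdm5c siRNA cells, against 70.8, 53.9, 98.3 and 59.0 in scramble cells. Scramble replicates 1 and 3 lay above every Kdm5c library, and scramble replicates 2 and 4 lay among them. The log2 fold change of -0.27 (SE 0.20, interval -0.66 to 0.12) had an edgeR adjusted p of 0.923, the smallest of the 8 genes on that day. On days -2 and -1 the estimates were -0.02 and -0.01.

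Sesn2 encodes a sestrin, which senses leucine and restrains mTORC1. On day -2 its peak (chr4:132509502-132510737) had 119, 98.8, 88.4 and 88.6 normalised counts in Kdm5c siRNA cells, against 74.6, 73.5, 82.9 and 94.1 in scramble cells. Only scramble replicate 4 lay within the range of the Kdm5c libraries. The log2 fold change was 0.26 (SE 0.17, interval -0.07 to 0.60), the largest of the 8 genes on that day, with an edgeR adjusted p of 0.980. On day -1 the means were 52.3 ± 3.82 in Kdm5c siRNA cells and 52.2 ± 6.99 in scramble cells (SD, n = 4 each). On day 0 they were 79.9 ± 9.16 in Kdm5c siRNA cells (n = 3) and 83.1 ± 22.4 in scramble cells (n = 4).

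**Figure D4:**
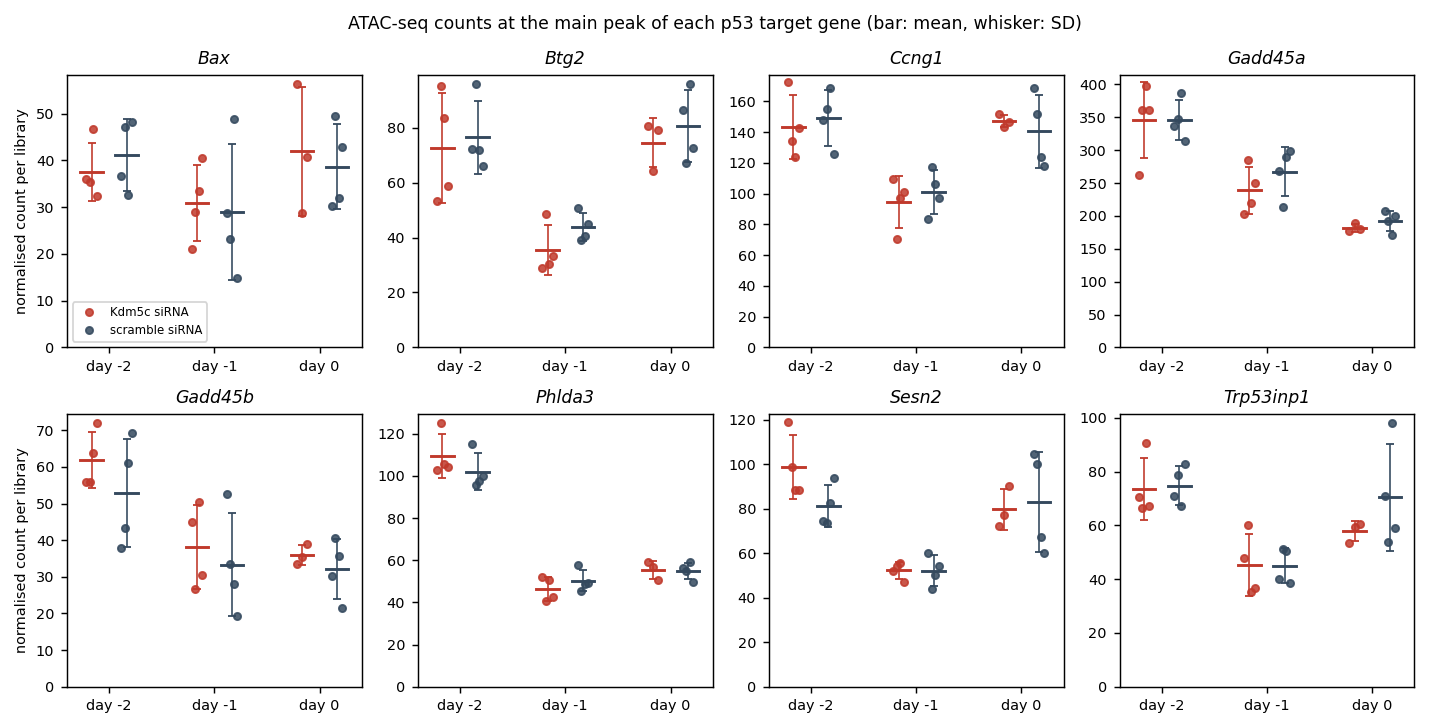
Normalised counts at the main peak of each of the 8 genes in every library (vertical axis from 0; points, libraries; bars, means; whiskers, SD), with Kdm5c siRNA left of scramble siRNA within each day. Counts are scaled within a day, and peak widths differ between days, so only the arms of 1 day can be compared. The arms overlap in every gene on every day.

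The unnamed or otherwise named peaks within 10 kb gave no call either. Of them, 13 of 20, 9 of 12 and 12 of 15 had enough counts to be tested, and 0 were called by edgeR on each day. At 1 of these peaks the arms did not overlap, on day 0, downstream of Phlda3 (chr1:135771526-135771809), where means were 14.2 ± 0.75 in Kdm5c siRNA cells (n = 3) and 11.1 ± 0.90 in scramble cells (SD, n = 4). That is 1 of the 12 tested, beside 6.22% of all peaks tested that day. The log2 fold change there was 0.36 (SE 0.53). The Ftl1 peak beside Bax had log2 fold changes of -0.06, 0.04 and 0.12 on days -2, -1 and 0. The main Mdm2 peak itself had 6205 ± 599, 5033 ± 182 and 7292 ± 127 normalised counts in Kdm5c siRNA cells, against 6138 ± 397, 4834 ± 64.6 and 6605 ± 317 in scramble cells, and fold changes of 0.02, 0.06 and 0.14 on the log2 scale. On day 0 the arms did not overlap at this peak, with 7149 to 7393 in Kdm5c siRNA cells and 6211 to 6890 in scramble cells, and the edgeR adjusted p was 0.932. None of its 21, 8 and 14 peaks within 10 kb was called.

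Whether the siRNA effect differed between days was tested as an interaction in 1 edgeR fit over 13674 peaks matched on all 3 days by a reciprocal overlap of 50%. Main peaks of 5 genes could be matched, namely those of Bax, Btg2, Ccng1, Sesn2 and Trp53inp1. None of the 5 was called for day -1 minus day -2, day 0 minus day -1 or day 0 minus day -2, and neither was any other peak, which makes 0% in each comparison. The unadjusted p was under 0.05 at 673, 712 and 876 peaks (4.92%, 5.21% and 6.41%), none of them a main peak of the 5 genes. The interactions of the 5 genes ran over -0.32 to 0.27, -0.28 to 0.20 and -0.34 to 0.18 on the log2 scale.

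Across days, Btg2 was the only matched gene called by plain counts. For day 0 over day -1 all 5 matched genes had positive log2 estimates, of 0.05 to 0.75 in Kdm5c siRNA cells and 0.14 to 0.55 in scramble cells. At the Btg2 peak in Kdm5c siRNA cells, day 0 over day -1 gave a log2 fold change of 0.75 (SE 0.21, interval 0.33 to 1.17) with an edgeR adjusted p of 0.0231, 1 of 5 genes called against 3.79% of all matched peaks. On a common scale over all days, in the merged region of Btg2 (chr1:134078900-134079564), Kdm5c siRNA cells had 85.2, 67.2 and 83.0 normalised counts on day 0, against 38.3, 64.3, 40.1 and 44.4 on day -1. Replicate 2 of day -1, at 64.3, lay close to the lowest library of day 0, at 67.2. In scramble cells the same region had 91.8, 72.1, 101 and 76.4 on day 0, against 67.1, 51.7, 53.5 and 59.3 on day -1. The scramble log2 fold change at the matched peak was 0.55 (SE 0.20) with an edgeR adjusted p of 0.0734, and the arms' day effects were not shown to differ (interaction 0.20, SE 0.29).

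The Btg2 peak was also wider on day 0, with 664 bases against 484 on day -1 and 577 on day -2. With the log width as an offset, so that density was compared, the estimates were 0.30 in Kdm5c siRNA cells (edgeR adjusted p = 0.553) and 0.09 in scramble cells (0.849). The call was lost at an adjusted p of 0.0795, 0.0757 and 0.0681 without replicate 1, 3 or 4 of Kdm5c siRNA on day -1, and of 0.0898 and 0.117 without replicate 1 or 4 on day 0, with estimates of 0.67 to 0.72. Days were sampled and peak-called apart, so day and handling cannot be told apart. Beyond Btg2, 0 of 5 genes were called in Kdm5c siRNA cells for day -1 over day -2 (6.36% of matched peaks) and in scramble cells for day -1 over day -2 (5.73%) and day 0 over day -1 (6.85%).

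**Figure D5:**
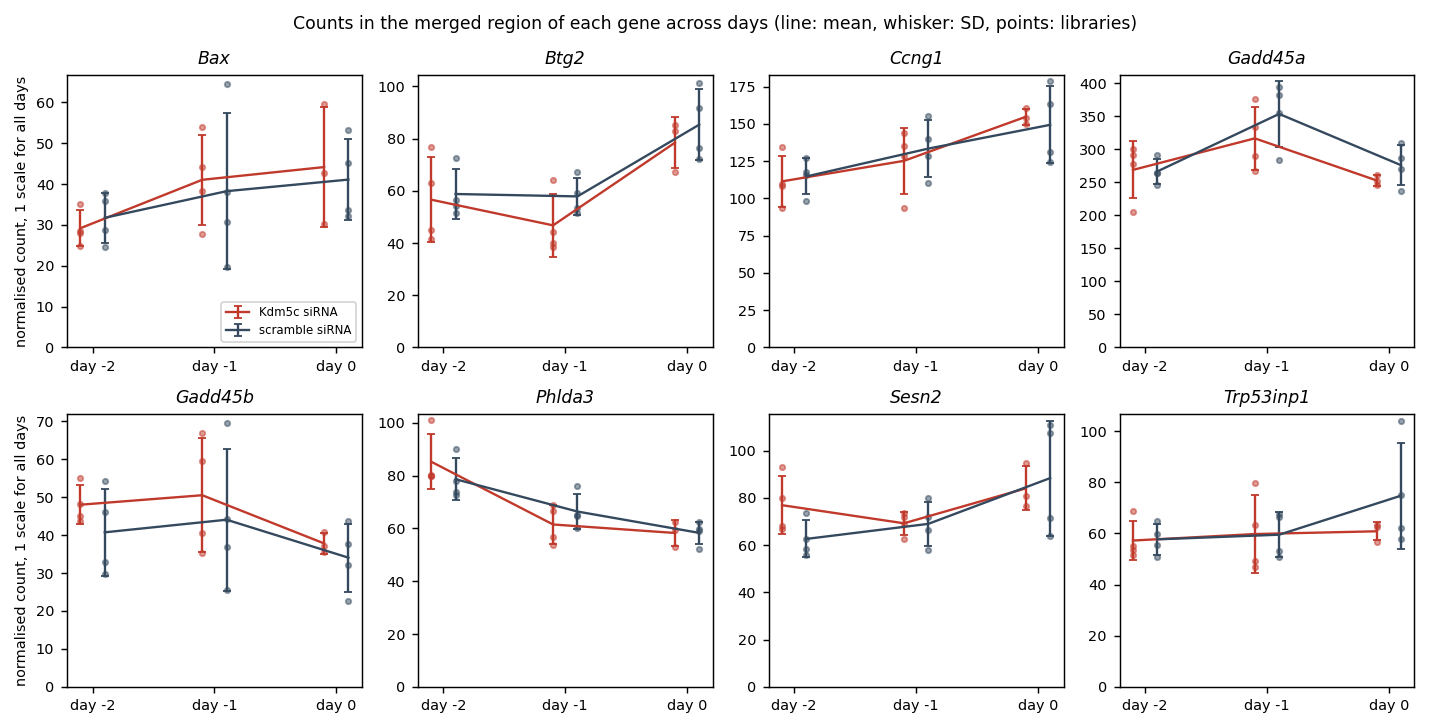
Normalised counts on 1 scale for all days in the merged region of each gene (vertical axis from 0), with lines through the means, SD whiskers and 1 point per library, for Kdm5c siRNA (red, drawn left) and scramble siRNA (dark). Btg2 means in Kdm5c siRNA cells are 56.6, 46.8 and 78.5 on days -2, -1 and 0, and Gadd45a means in scramble cells are 266, 353 and 276.

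Regions merged over the days covered all 8 genes and were added after the data had been seen. In these, Gadd45a in scramble cells had 354, 283, 382 and 394 normalised counts on day -1, against 264, 264, 292 and 246 on day -2. The log2 fold change was 0.40 (SE 0.12) with an edgeR adjusted p of 0.0164, against 11.5% of all merged regions called. All but replicate 2 of day -1 lay above every library of day -2. On day 0 the region had 309, 271, 236 and 287 in scramble cells, and day 0 over day -1 gave -0.35 (SE 0.12, adjusted p = 0.0431, background 13.3%), and Btg2 was called with 0.56 (adjusted p = 0.0468). In Kdm5c siRNA cells the Gadd45a estimates were 0.23 (adjusted p = 0.214, background 12.3%) and -0.32 (0.110, background 9.16%), and Btg2 was again called for day 0 over day -1 with 0.76 (0.0108). The Gadd45a peaks covered 1364, 1546 and 1308 bases on the 3 days, and with width as an offset its scramble estimates were 0.22 (adjusted p = 0.203) and -0.11 (0.659).

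Width moved other genes the opposite way. Phlda3 and Trp53inp1 had narrow peaks on day -1, with 614 and 583 bases, against 1140 and 841 on day -2. Per base, Phlda3 in scramble cells gave 0.65 (edgeR adjusted p = 0.00608) for day -1 over day -2, against 15.9% of regions called, and Trp53inp1 gave 0.56 in scramble cells (0.0381) and 0.56 in Kdm5c siRNA cells (0.0338, background 16.0%). As plain counts the same estimates were -0.24, 0.04 and 0.04, and none was called. Phlda3 in Kdm5c siRNA cells gave 0.41 per base (adjusted p = 0.0915) and -0.48 as plain counts (0.0525), so its sign turned with the measure and neither was called. The day comparisons of the 8 genes thus depend on whether counts or density are compared, and none of the 8 was called by both measures in the same comparison. Mdm2 gave 0.40 in Kdm5c siRNA cells (adjusted p = 0.0246) and 0.37 in scramble cells (0.0430) for day -1 over day -2 at its matched peak, and 0.38 (0.0265) and 0.35 (0.0419) with width as an offset. The Mdm2 call in Kdm5c siRNA cells was lost without replicate 1 or 2 of day -2 (adjusted p of 0.0656 and 0.0705) or replicate 3 of day -1 (0.0641), and that in scramble cells was lost without any 1 of its 8 libraries (0.0595 to 0.107).

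Other genes of the p53 pathway were described with 3 lists. Of 33 further p53 targets, 22 were tested on each day, 0 were called, and the median log2 fold changes were 0.00, 0.15 and -0.07 on days -2, -1 and 0, beside 0.00, -0.00 and -0.01 over all peaks tested. On day -1, 16 of the 22 had positive estimates and 6 negative, and 0 had an unadjusted p under 0.05. The targets with the smallest unadjusted p were Xpc, a damage sensor of excision repair, at 0.30 and Ei24 at -0.38 on day -2, the phosphatase gene Ppm1d at -0.39 and the kinase gene Plk2 at 0.34 on day -1, and the repair nuclease gene Ercc5 at -0.39 and Mdm2 at 0.14 on day 0. Cdkn1a, which encodes the cell-cycle inhibitor p21, carried no named peak and was not analysed here.

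The p53 control list had 17 genes, mostly regulators of p53, with Trp53 itself, Trp63 and Trp73 among them. Of these, 11, 10 and 10 were tested and 0 were called, with medians of -0.02, 0.09 and 0.06. Those with the smallest unadjusted p were Trp73 (-1.37) and Atr (-0.39) on day -2, Atr (-0.84) and Trp53 itself (0.45) on day -1, and Crebbp (-0.27) and Atr (0.35) on day 0. The Trp73 peak was low, with 6.75 ± 1.84 normalised counts in Kdm5c siRNA cells and 17.4 ± 7.26 in scramble cells (SD, n = 4 each). Atr, the kinase that signals replication stress, had estimates of both signs. Of 17 relatives of the 8 genes, 14, 12 and 14 were tested and 0 were called, with medians of -0.11, 0.07 and -0.03. Named by the same rule were Phlda1 (-0.39) and Bcl2l11 (0.44) on day -2, Sesn3 (-0.48) and Bok (-0.51) on day -1, and Gadd45g (0.64) and Mcl1 (-0.31) on day 0. DESeq2 called no peak of any list. Unadjusted edgeR p-values were under 0.05 for 1 gene of the p53 control list and 2 of the relatives on day -2, for 1 and 2 on day -1, and for 0 of both on day 0, beside 4.63%, 5.37% and 6.0% of all peaks tested.

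The pattern over libraries was compared with 6887 gene-named peaks matched on all 3 days, by Pearson's r of log2 library-scaled counts over the 23 libraries, for the 3 matched genes with the most counts. Ccng1 was most like Rufy3 (r = 0.826) and Ptgfr (0.738). Sesn2 was most like Socs1 (0.755) and Cdk17 (0.702), and Btg2 most like Ahctf1 (0.772) and Adam9 (0.757). With each day's mean removed these were 0.777 and 0.563, 0.660 and 0.617, and 0.564 and 0.502. The libraries share day, depth and peak boundaries, and the pairs were picked as the highest of 6887, so the values are descriptions.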

How the data were processed

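ATAC-seq was measured in 23 libraries of 3T3-L1 cells. For each day the authors deposited whole-number counts of reads per peak, which entered all tests, and a table of normalised signal for gene-named peaks, which equals the deposited counts divided by 1 constant per library and gave the gene names. The submitters' processing notes name DESeq2 1.24.0, HTSeq 0.9.1, MACS2 2.1.1, Bowtie2 2.2.9 and cutadapt 2.3, with the build GRCm38. Settings, the treatment of duplicate and mitochondrial reads, the shift for the transposase and whether peak starts count from 0 or 1 are not given in the sources.

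Each day was fitted over the whole table with edgeR 4.0.16 in R 4.3.3 (TMM factors, filterByExpr, quasi-likelihood F test, no block). Log2 fold changes are relative to the bulk of peaks, and scaling by total counts instead moved the median by 0.42, 0.38 and 0.56 on days -2, -1 and 0. Standard errors came from the F statistic. Days were compared in 1 fit over peaks matched with bedtools 2.31.1. DESeq2 1.42.0 was the second tool. Python 3.11.15 was used for the rest. Peak sums per gene, merged regions and width offsets on them were added after the data were seen. The edgeR step was tested on simulated data. The 8 genes, the lists and the tests were chosen with earlier results of these data known. Named in the text are the 8 genes, Mdm2, called list genes or otherwise the 2 with the smallest unadjusted p of each list and day, and the most alike peaks. Kdm5c, Kdr, Pdgfra, Cd34, Cdkn1a, Ftl1 and the Phlda3 peak without overlap were named outside that rule, after their values were seen. Promoter letters are RefSeq's, of GRCm38.p6.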

Additional observations from a re-analysis of the deposited data

Results flagged for a closer look

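One value stood apart from its group. At the main Phlda3 peak on day -2, Kdm5c siRNA replicate 2 had 125 normalised counts, and the other 3 libraries of its arm had 103 to 106. Its gap to the nearest library was 0.881 of the group's range, above Dixon's 95% critical value for 4 libraries. Of 40 groups examined 1 was marked in this way, and chance marks about 1 in 20. The log2 fold change of Kdm5c siRNA over scramble at this peak was 0.11 with the library and 0.03 without it.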

How the results depend on the processing

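No alternative called any peak of the 8 genes between arms on any day. The log2 fold changes listed here changed sign, and those past the threshold are marked as called. The cause of each change was not tested except where the construction shows it. Replicate numbers did not pair the libraries (correlations of -0.041 to 0.160). With the replicate block, 5, 1 and 0 of all peaks were called between arms on days -2, -1 and 0. The block gave -0.0078 for Gadd45a on day -2, 0.00082 for Trp53inp1 on day -1, and -0.0050 for Bax and 0.047 for Phlda3 on day 0.

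On day -2, 1 of all peaks was called with RLE factors, with nuclear totals and without mitochondrial peaks, and 0 with DESeq2, which had 3008, 1604 and 2083 peaks at an unadjusted p under 0.05 on days -2, -1 and 0. On day 0 the counts were 2 with RLE factors, with nuclear totals and without mitochondrial peaks, 0 with DESeq2 and 6 with no low-count filter. Gadd45a on day -2 gave -0.019 with nuclear totals, -0.032 with DESeq2 and -0.042 with no filter. Phlda3 on day 0 gave 0.036, 0.013 and 0.018 in the same 3 settings, and Sesn2 on day -1 gave 0.0055 with nuclear totals.

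The day comparisons moved with peak width. With width as an offset, 1267 peaks were called in scramble cells for day -1 over day -2 and 264 in Kdm5c siRNA cells for day 0 over day -1, with 0 of the 5 matched genes in the second. For day -1 over day -2 in scramble cells this turned Btg2 to 0.18 and Trp53inp1 to 0.50, and in Kdm5c siRNA cells Trp53inp1 to 0.49. For day 0 over day -1 it turned Ccng1 to -0.10, Trp53inp1 to -0.17 and Mdm2 to -0.42 (called) in scramble cells, and Trp53inp1 to -0.45 and Mdm2 to -0.35 in Kdm5c siRNA cells. An overlap of 80% left fewer peaks to test, with 63 and 96 called in scramble cells and 72 and 17 in Kdm5c siRNA cells for the earlier and later step. None of the genes was called in the last. The Btg2 peak could not be matched at 80%, as its 484 bases of day -1 fall short of that share of its 664 bases of day 0. Its call was thus not tested in this setting. The interaction of day 0 minus day -2 had 1 peak called, and Sesn2 gave -0.025 in scramble cells at the earlier step.

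Merged regions called 2323 and 2698 in scramble cells, with 1 and 2 of the 8 genes, and 2495 and 1852 in Kdm5c siRNA cells. Trp53inp1 turned to 0.037 in scramble cells and 0.036 in Kdm5c siRNA cells for day -1 over day -2. With the width offset on merged regions, 3211 regions and 2 of the genes were called in scramble cells and 3233 and 1 in Kdm5c siRNA cells for day -1 over day -2, and 0 of the genes in Kdm5c siRNA cells for day 0 over day -1. There Btg2 was 0.25 and Trp53inp1 0.56 (called) in scramble cells and Trp53inp1 0.56 (called) in Kdm5c siRNA cells for the earlier step. For the later step Ccng1 was -0.093, Trp53inp1 -0.16 and Mdm2 -0.41 (called) in scramble cells, and Trp53inp1 -0.44 and Mdm2 -0.34 in Kdm5c siRNA cells. Sums of gene-named peaks called 1 and 1 of the 8 genes in scramble cells, with 544 of all genes at the later step, and 2 of the 8 in Kdm5c siRNA cells at the later step. Gadd45a was among these with -0.89 and -0.80, where its unnamed part of day 0 was left out of the sum. The sums were made for the 8452 genes named on all 3 days, before the low-count filter. Shares called over all genes were not worked out for these sums, so the counts of the 8 genes cannot be set against a general rate. Trp53inp1 gave 0.018 in scramble cells and 0.043 in Kdm5c siRNA cells at the earlier step, and Bax -0.023 and Trp53inp1 -0.024 in Kdm5c siRNA cells at the later one.

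Leaving out 1 library at a time called 2 to 11, 0 to 0 and 0 to 10 of all peaks between arms on days -2, -1 and 0, and none of the 8 genes. It called 511 to 830 and 600 to 994 peaks in scramble cells and 546 to 904 and 252 to 546 in Kdm5c siRNA cells for the earlier and later step, with 0 to 1 of the matched genes in the last. For the interactions it called 0 to 2, 0 to 0 and 0 to 7. Estimates between arms that changed sign spanned, on day -2, -0.19 to 0.067 for Btg2, -0.10 to 0.10 for Gadd45a and -0.17 to 0.036 for Trp53inp1. On day -1 they spanned -0.058 to 0.48 for Bax, -0.18 to 0.020 for Ccng1, -0.022 to 0.49 for Gadd45b, -0.089 to 0.073 for Sesn2 and -0.17 to 0.084 for Trp53inp1. On day 0 they spanned -0.13 to 0.28 for Bax, -0.022 to 0.15 for Ccng1, -0.58 to 0.083 and -0.51 to 0.067 for the upstream Gadd45b peaks, -0.054 to 0.067 for Phlda3 and -0.18 to 0.078 for Sesn2. In scramble cells the earlier step spanned -0.15 to 0.38 for Bax, -0.15 to 0.036 for Btg2, -0.016 to 0.16 for Sesn2 and -0.097 to 0.050 for Trp53inp1, and the later step -0.089 to 0.45 for Bax. In Kdm5c siRNA cells the earlier step spanned -0.18 to 0.071 for Trp53inp1, and the later step -0.18 to 0.25 for Bax and -0.052 to 0.20 for Trp53inp1. Standard errors between arms ran up to 0.25, 0.28 and 0.28 on days -2, -1 and 0 at main peaks, and how much of this is depth and how much spread between libraries was not tested.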
